A study of Homo sapiens with 4 samples.

Results

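The claudins and epithelial junction genes described here were 10 genes chosen by symbol, CLDN1, CLDN3, CLDN4, CLDN7, OCLN, TJP1, F11R, JUP, DSP and CGN, and all 10 of them were found among the 26506 gene symbols of both tables. RNA sequencing was performed on HeyC2 and SKOV3, a pair of established human ovarian cancer cell lines, with 1 library per condition and 4 libraries in all. In each line, cells labelled wild-type had received 3 μg of empty plasmid and cells labelled TET1 overexpressed had received 3 μg of pCMV6/TET1, a plasmid that drives the 5-methylcytosine dioxygenase TET1 from a viral promoter, both with lipofectamine 2000. The transfected cells of all 4 conditions were then selected and grown in medium with 400 μg/ml Geneticin, and whether they were pools or single clones is not given in the sources used here. With 1 library per group no difference has a replicate check, so the intervals printed cover counting error only and no p-value was computed.

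Tight junctions seal the space between neighbouring epithelial cells. Claudins form the paracellular strands, occludin and the junctional adhesion molecule F11R (JAM-A) join them in the membrane, and ZO-1 (TJP1) and cingulin (CGN) tie them to actin. Desmosomes hold the same cells together mechanically, with desmoplakin (DSP) and plakoglobin (JUP) linking desmosomal cadherins to keratin filaments, and CLDN3, CLDN4 and CLDN7 are well-known surface markers of epithelial ovarian carcinomas.

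Promoter windows of CLDN3, CLDN4, CLDN7, DSP and JUP are given, taken as the 250 bases before the transcript start from RefSeq on GRCh38.p14. They are shown because TET1 acts on CpG sites and because the E-box CAGGTG is the site bound by SNAI and ZEB repressors. Each is written 5′ to 3′ on the gene's own strand in lower case, and capitals mark CAGGTG or its reverse complement CACCTG. The windows are chr7:73770271-73770520 (minus strand) for CLDN3, chr7:73830746-73830995 (plus) for CLDN4, chr17:7262479-7262728 (minus) for CLDN7, chr6:7541421-7541670 (plus) for DSP and chr17:41786712-41786961 (minus) for JUP.
CLDN3: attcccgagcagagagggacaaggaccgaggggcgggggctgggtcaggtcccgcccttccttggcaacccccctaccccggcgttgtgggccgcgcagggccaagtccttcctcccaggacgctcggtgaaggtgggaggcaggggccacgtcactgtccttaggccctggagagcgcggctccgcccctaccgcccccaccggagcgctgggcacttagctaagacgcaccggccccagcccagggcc
CLDN4: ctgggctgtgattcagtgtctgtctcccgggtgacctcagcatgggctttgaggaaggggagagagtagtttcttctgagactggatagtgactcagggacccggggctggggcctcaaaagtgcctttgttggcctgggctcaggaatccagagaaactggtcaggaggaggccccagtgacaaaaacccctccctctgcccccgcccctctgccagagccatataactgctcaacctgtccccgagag
CLDN7: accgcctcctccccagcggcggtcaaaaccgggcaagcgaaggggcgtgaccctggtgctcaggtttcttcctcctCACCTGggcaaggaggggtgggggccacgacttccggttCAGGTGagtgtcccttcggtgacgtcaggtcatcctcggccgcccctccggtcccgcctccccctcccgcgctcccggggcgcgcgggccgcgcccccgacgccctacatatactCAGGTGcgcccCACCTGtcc
DSP: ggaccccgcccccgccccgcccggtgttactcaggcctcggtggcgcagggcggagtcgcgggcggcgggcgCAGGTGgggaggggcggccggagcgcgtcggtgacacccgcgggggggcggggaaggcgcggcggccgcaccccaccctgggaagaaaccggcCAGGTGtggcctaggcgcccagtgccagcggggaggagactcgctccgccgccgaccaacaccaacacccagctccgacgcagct
JUP: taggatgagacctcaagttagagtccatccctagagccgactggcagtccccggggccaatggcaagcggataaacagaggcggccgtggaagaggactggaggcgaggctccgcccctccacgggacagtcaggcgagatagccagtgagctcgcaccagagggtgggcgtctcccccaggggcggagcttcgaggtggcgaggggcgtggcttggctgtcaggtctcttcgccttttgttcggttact

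CLDN7 held 4 copies of the E-box, DSP held 2, and CLDN3, CLDN4 and JUP held 0. Of the windows not shown, that of OCLN held 1 and those of CLDN1, TJP1 and CGN held 0. Windows of other annotated starts held up to 1 in OCLN and TJP1, 2 in JUP and 0 in CLDN7. Across all 35116 promoter windows of the same length, 17.49% held the E-box on either strand, 2.53% held 2 or more and 0.46% held 3 or more. The windows also differed in CpG content. DSP had 33 CpG sites, CGN 32, CLDN1 28, TJP1 27, CLDN7 25, OCLN 20, CLDN3 19 and JUP 17, whereas CLDN4 had 4, against a median of 11 over all windows with quartiles of 3 and 23. CLDN4 was thus the only gene below that median among the 9 with an entry, F11R having none here. The grainyhead motif AACCGGTT was in 0 of these 9 windows and in 0.12% of all windows. DNA methylation of these windows was not analysed here.

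The libraries were checked before the junction genes were read. GAPDH was identical in TET1 and control as deposited, and the TET1 values of each line lay on a grid of 0.01 FPKM (fragments per kilobase of transcript, scaled to sequencing depth) multiplied by 1 constant, 3.23 in HeyC2 and 1.35 in SKOV3. All FPKM values below are after division of the TET1 library by that constant, which left GAPDH at 1675 in HeyC2 TET1 and 1671 in SKOV3 TET1, against 5417 and 2248 in their controls. Depth was estimated, within a fixed search range, from the steps of the lowest values at 6620000 to 7420000 fragments per library. In these libraries 15162 to 16941 genes were above 0. TET1 itself was 0.20 FPKM in the HeyC2 control and 0.52 in HeyC2 TET1, and 0.43 and 1.80 likewise for SKOV3, so it was higher in the library labelled as TET1 in each line, from an estimated 14 and 33 fragments in HeyC2 and 29 and 113 in SKOV3. Markers of ovarian carcinoma cells included PAX8, the Müllerian transcription factor, at 74.59 to 194.74 FPKM and KRT8, a simple epithelial keratin, at 386.27 to 774.61 FPKM in all 4 libraries, while MUC16, the CA125 antigen, was at most 0.05 FPKM. Other markers of that list did not hold in every library. In SKOV3, KRT7 was 1537.20 FPKM in the control and 21.96 FPKM with TET1, KRT19 was 255.14 and 0.46 FPKM, and MSLN was 10.29 and 0.08 FPKM. In HeyC2, KRT19 was 0.62 FPKM in the control and 1.59 FPKM with TET1. FOLR1 was 0.17 and 0.00 FPKM in HeyC2 and 58.20 and 55.43 FPKM in SKOV3, and WT1 was at most 0.53 FPKM in all 4 libraries. With 1 library per condition, a difference in clone or cell stock between the SKOV3 cells and a change after TET1 cannot be told apart, which holds for every SKOV3 value below and for HeyC2 alike. EPCAM, an epithelial adhesion molecule, was 0.09 and 0.38 FPKM in the HeyC2 libraries and 15.39 and 16.10 FPKM in SKOV3.

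The controls of the lines, both with empty plasmid, were compared first, HeyC2 against SKOV3. More of the 10 genes were expressed in SKOV3: 9 reached 1 FPKM in the SKOV3 control and 4 did so in the HeyC2 control. Among all genes, 16149 were above 0 in the SKOV3 control and 15162 in the HeyC2 control. The share of all genes that reached 1 FPKM is not given here. The summed level was similar, 261.75 FPKM in HeyC2 and 232.73 FPKM in SKOV3, because CLDN1 alone supplied 212.89 FPKM in HeyC2. Of the 9 genes that passed the filter of a mean of 1 FPKM over both libraries, 2 were at least 1.5-fold higher in HeyC2 and 6 were at least 1.5-fold lower, relative to the median of all genes. CLDN3, CLDN4, OCLN, JUP and CGN passed only through their SKOV3 level, so their direction was fixed by the filter. Over all 12488 genes that passed, 29.0% were higher and 28.6% lower by this rule (3619 and 3575 genes), with an all-gene median of -0.27 on the log2 scale that was subtracted. Without that subtraction the counts were 2736 higher and 4725 lower, and 2796 and 4982 after rescaling to TPM. In these bulk samples, fewer cells of a type and less RNA per cell cannot be told apart.

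**Figure D1:**
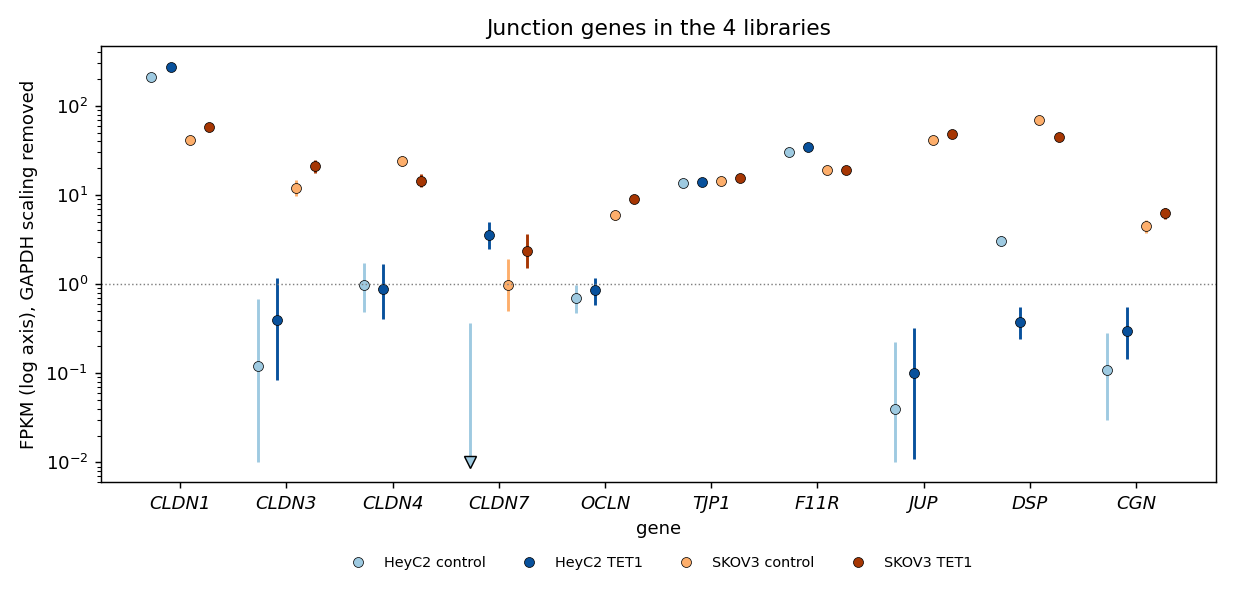
FPKM of the 10 junction genes in the 4 libraries on a log axis, 1 point per library with its exact 95% Poisson interval from estimated fragments (drawn no lower than 0.01), and a triangle for a gene listed at 0; the dotted line is 1 FPKM. CLDN1, TJP1 and F11R were at least 13.66 FPKM in every library, while JUP was at most 0.10 FPKM in HeyC2 and at least 41.41 FPKM in SKOV3.

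Among the claudins, CLDN1, a barrier-forming claudin of many epithelia, stood apart from the others. It was 212.89 FPKM in the HeyC2 control and 41.13 in the SKOV3 control, a ratio of 6.27 relative to all genes (95% counting interval 5.85 to 6.72). CLDN4, a barrier claudin bound by the Clostridium perfringens enterotoxin, was 0.98 FPKM in the HeyC2 control, from an estimated 11 fragments, and 24.18 in the SKOV3 control, from 260. The HeyC2 level was 0.0491 of that in SKOV3 relative to all genes (0.0240 to 0.0886). CLDN3, another enterotoxin receptor, was 0.12 FPKM in the HeyC2 control from 1 fragment and 12.13 FPKM in the SKOV3 control from 95 fragments. That gave a relative ratio of 0.0120 with a wide interval of 0.0003 to 0.0692. CLDN7, which associates with EPCAM in epithelia, was listed at 0 in the HeyC2 control, an interval of up to 0.362 FPKM, and stood at 0.99 FPKM in the SKOV3 control. CLDN7 did not pass the filter in this comparison, and no fold is given.

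The other membrane proteins and the scaffolds separated the lines less evenly. F11R was 30.19 FPKM in the HeyC2 control and 19.33 in the SKOV3 control, a relative ratio of 1.89 (1.71 to 2.09). OCLN was 0.70 and 5.94 FPKM, a relative ratio of 0.143 (0.0943 to 0.206). The files also list, under another symbol, an entry taken here as the OCLN pseudogene copy OCLNP1. It was 0.00 in all 4 libraries, and reads shared by both copies make the OCLN values uncertain. TJP1 hardly differed, at 13.66 and 14.24 FPKM, and its relative log2 difference was 0.21 after centring on the all-gene median and -0.06 without it. CGN, which binds ZO-1 at the junction, was 0.11 FPKM in the HeyC2 control, from 4 fragments, and 4.46 in the SKOV3 control, a relative ratio of 0.0299 (0.0080 to 0.0776).

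Of the desmosomal genes, JUP had the lowest ratio of all 9 genes that passed, with an interval that overlapped that of CLDN3. JUP was 0.04 FPKM in the HeyC2 control, from 1 fragment, and 41.41 FPKM in the SKOV3 control, from 975. The relative ratio of JUP was 0.0012, with an upper bound of 0.0066. DSP was 3.06 FPKM in the HeyC2 control, from 216 fragments, and 68.92 in the SKOV3 control, from 4636, a relative ratio of 0.0537 (0.0466 to 0.0615). Hence the order of the genes differed between the lines. The HeyC2 control ran CLDN1, F11R, TJP1 and DSP with the others under 1 FPKM, and the SKOV3 control ran DSP, JUP, CLDN1, CLDN4, F11R, TJP1, CLDN3, OCLN, CGN and CLDN7. In SKOV3 the intervals of JUP and CLDN1, and those of TJP1 and CLDN3, overlapped, so neither pair could be ordered. In HeyC2 the 6 genes below DSP each overlapped with the next in order.

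In HeyC2, TET1 against control compared the junction genes after TET1 expression with those of the same line carrying empty plasmid. Of the 10 genes, 5 passed the filter: CLDN7 was higher, DSP was lower, and CLDN1, TJP1 and F11R lay between. Among all 11896 genes that passed, 12.5% were higher and 9.19% lower by the same 1.5-fold rule (1489 and 1093 genes, with an all-gene median of 0.06), beside which stand 1 of 5 in each direction. CLDN7 passed the filter only through its TET1 level and DSP only through its control level, so the filter fixed the direction of both.

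CLDN7 was listed at 0 in the HeyC2 control and was 3.53 FPKM in HeyC2 TET1, from an estimated 33 fragments with an interval of 2.46 to 5.03 FPKM. The control's interval of up to 0.362 FPKM did not reach it. The centred log2 change of 2.12 depended on the pseudocount, reaching 5.12 with 0.1 and 8.40 with 0.01, so no fold is given. CLDN7 lies at chr17:7163222-7167302 on the minus strand of GRCh37, with 4 exons in its canonical transcript, and overlaps ELP5 on the opposite strand. ELP5, an Elongator subunit, was 31.79 FPKM in the HeyC2 control and 33.86 in HeyC2 TET1, and whether the counting used strand is not given in the sources used here. A share of ELP5 reads in the CLDN7 values was not tested. Over the 20 expressed neighbours of CLDN7, the median relative log2 change in HeyC2 was 0.10, with 1 neighbour higher and 0 lower.

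DSP moved the other way. It was 3.06 FPKM in the HeyC2 control and 0.38 in HeyC2 TET1, from an estimated 216 and 24 fragments. The relative ratio was 0.119 (0.0735 to 0.179), and the relative log2 change with the pseudocount was -1.61. DSP lies at chr6:7541571-7586947 on the plus strand, with 24 exons in its canonical transcript. Its 20 expressed neighbours on chromosome 6 had a median relative log2 change of -0.01 and a lowest value of -0.53, so none of them was near the value of DSP.

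The abundant tight junction genes of HeyC2 changed little. CLDN1 was 212.89 FPKM in the control and 274.93 in TET1, a relative ratio of 1.23 (1.19 to 1.28), an interval that left out 1 but lay under 1.5. F11R was 30.19 and 34.48 FPKM, a relative ratio of 1.09 (0.999 to 1.19). TJP1 was 13.66 and 13.86 FPKM, a relative ratio of 0.969 (0.870 to 1.08). The 5 genes under the filter stayed under 1 FPKM in both HeyC2 libraries, and the counting interval of each of their ratios included 1, so no difference was detectable at this depth. CLDN4 was 0.98 and 0.89 FPKM in control and TET1, OCLN was 0.70 and 0.85, and CLDN3 was 0.12 and 0.40. CGN was 0.11 and 0.30 FPKM, from 4 and 10 fragments. JUP was 0.04 and 0.10 FPKM, from 1 and 2 fragments, and so was near 0 in both conditions.

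**Figure D2:**
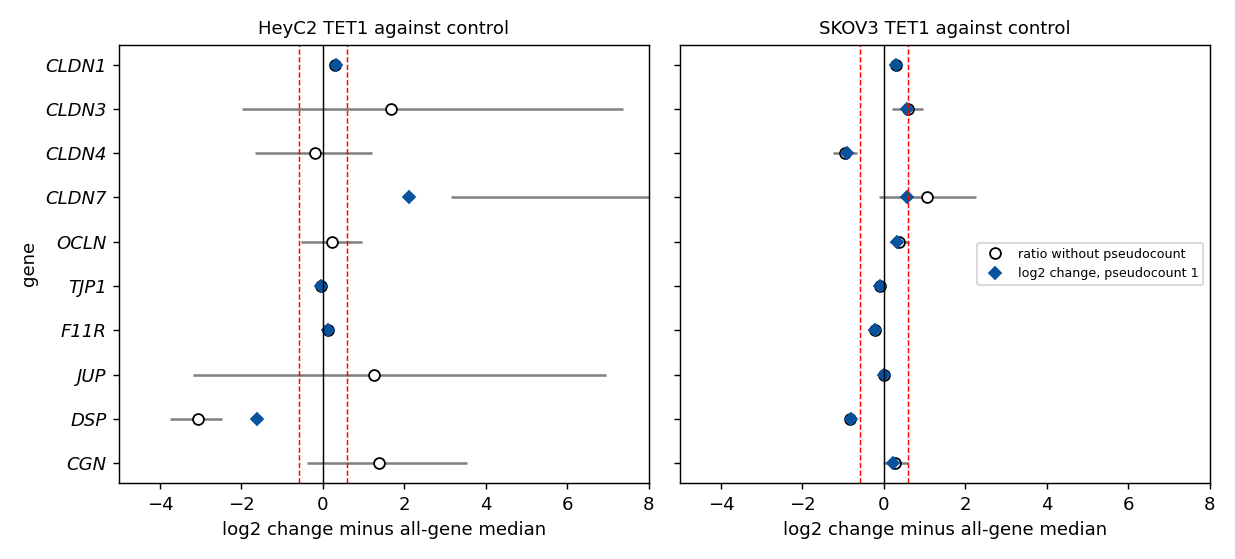
Change of each junction gene in TET1 against control, as log2 minus the all-gene median; diamonds use a pseudocount of 1 and are drawn for genes that passed the filter, open circles and grey lines give the ratio without pseudocount and its 95% counting interval (cut at 8), and red dashed lines mark 1.5-fold. DSP lay left of the line in both lines, with ratios of 0.119 in HeyC2 and 0.561 in SKOV3, and CLDN7 in HeyC2 has no circle because its control was listed at 0.

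In SKOV3, TET1 against control, all 10 genes passed the filter. CLDN4 and DSP were lower, 0 were higher, and the other 8 lay between. Among all 13016 genes that passed, 20.7% were higher and 18.2% lower (2689 and 2363 genes), so 2 of 10 lower is close to the background share. The all-gene median of 0.19 was subtracted. Without it the counts were 3719 higher and 1499 lower, with upper-quartile scaling 3257 and 1859, and after rescaling to TPM 4279 and 1432.

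CLDN3 and CLDN4, near each other on chromosome 7 and each with 1 exon in its canonical transcript, parted in SKOV3. CLDN4 was 24.18 FPKM in the control and 14.46 in TET1, from 260 and 146 fragments, a relative ratio of 0.516 (0.419 to 0.635). CLDN3 was 12.13 FPKM in the control and 21.09 in TET1, from 95 and 154 fragments, a relative ratio of 1.5 (1.15 to 1.95). With the pseudocount the log2 changes were -0.90 for CLDN4 and 0.56 for CLDN3, the latter just inside the 1.5-fold line of 0.585. Their order therefore turned round, CLDN4 being above CLDN3 in the SKOV3 control and below it with TET1, and the counting intervals of the levels did not overlap in either library. CLDN3 lies at chr7:73183327-73184600 on the minus strand and CLDN4 at chr7:73213872-73247020 on the plus strand of GRCh37. The 20 expressed neighbours had a median relative log2 change of -0.03 around CLDN3 and 0.21 around CLDN4, sets that overlap.

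DSP was 68.92 FPKM in the SKOV3 control and 44.83 with TET1, from 4636 and 2827 fragments, a relative ratio of 0.561 (0.535 to 0.588) and a log2 change of -0.80. Its 20 neighbours had a median of -0.30. JUP, its desmosomal partner, did not follow it, at 41.41 and 47.83 FPKM with a relative ratio of 0.996 (0.912 to 1.09). The 20 neighbours of JUP on chromosome 17 ranged from -7.65 to 1.32 on the relative log2 scale, around a median of 0.27. Before centring, the log2 change was -0.61 for DSP and 0.20 for JUP.

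The other SKOV3 values were small or imprecise. CLDN1 was 41.13 and 58.12 FPKM in control and TET1, a relative ratio of 1.22 (1.12 to 1.33). CLDN7 was 0.99 and 2.37 FPKM, from 10 and 22 fragments, a relative ratio of 2.06 whose interval of 0.919 to 4.78 included 1. Around CLDN7, 13 of the 20 expressed neighbours were higher and 0 lower in SKOV3, with a median of 0.76, and ELP5 was 16.54 FPKM in the control and 25.27 in TET1. OCLN was 5.94 and 8.95 FPKM, a relative ratio of 1.30 (1.10 to 1.53), while 13 of its 20 neighbours were lower, with a median of -0.79. CGN was 4.46 and 6.27 FPKM, a relative ratio of 1.21 (0.982 to 1.51). The scaffold TJP1 was 14.24 and 15.41 FPKM, and F11R 19.33 and 19.12 FPKM. Their relative log2 changes of -0.09 and -0.21 changed sign with the scaling, to 0.16 and 0.04 after rescaling to TPM. The number of junction genes called higher in SKOV3 was 0 with the main settings and up to 3 under other pseudocounts, filters or scalings. CLDN3 and CLDN7 lay next to the 1.5-fold line, and OCLN passed it after rescaling to TPM, at 0.61.

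Set side by side, CLDN1 had relative log2 changes of 0.31 in HeyC2 and 0.30 in SKOV3, and DSP of -1.61 and -0.80. DSP was the only 1 of the 10 genes called lower in both lines, but the filter fixed its direction in HeyC2. The share of all genes called lower in both lines is not given here. CLDN1 was above the all-gene median in both lines without reaching 1.5-fold. A difference between the lines in these changes was not tested, since each rests on 1 library per condition. Across the 4 libraries, DSP had the widest log2 range (5.66), followed by JUP (5.55), and TJP1 the narrowest (0.16). Among 13088 genes, those whose 4 levels most resembled the pattern of DSP were HES1, WNT7B, SLC7A5, MELK and APOL1, at distances of 0.62 to 0.89 on the log2 scale over 4 libraries. HES1, a Notch-responsive repressor and the nearest of them, was 13.46, 3.54, 147.61 and 161.94 FPKM in HeyC2 control, HeyC2 TET1, SKOV3 control and SKOV3 TET1, and so was not lower in SKOV3 TET1.

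The claudins were also read as shares of their summed RNA. The 24 numbered claudins summed to 244.17 FPKM in the HeyC2 control and 341.04 after TET1, and for SKOV3 to 89.70 and 127.08. CLDN1 supplied 87.19% and 80.62% of the sum in HeyC2 and 45.85% and 45.73% in SKOV3. The CLDN4 share was 26.96% in control and 11.38% in TET1 cells of SKOV3, while that of CLDN3 was 13.52% and 16.60%. Claudins outside the 10 genes differed as well. In HeyC2, CLDN11, the claudin of myelin and Sertoli cells, was 12.63 FPKM in the control and 46.46 in TET1, a relative log2 change of 1.74, and CLDN12 was lower at 13.13 and 8.28 FPKM. In SKOV3 the channel-forming CLDN2 was 0.41 and 4.58 FPKM, CLDN15, another channel former, was 1.91 and 8.74 FPKM, and CLDN16, a renal cation-pore claudin, was 0.95 and 6.29 FPKM. In counts, 4 of the 21 other claudins and claudin-like genes passed the filter in HeyC2, with 1 higher and 1 lower, and 6 passed in SKOV3, with 3 higher and 0 lower, beside 12.5% and 9.19% of all genes in HeyC2 and 20.7% and 18.2% in SKOV3. CLDN2 and CLDN16 passed only through their TET1 level, which fixed their direction.

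**Figure D3:**
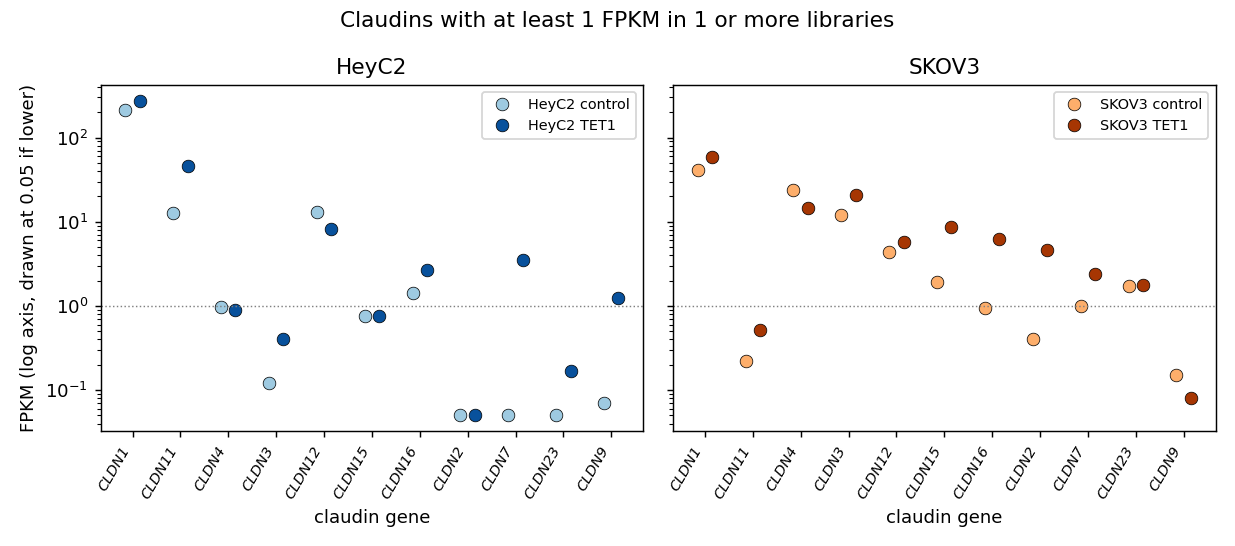
FPKM of the claudins that reached 1 FPKM in any library, on a log axis, with control and TET1 points side by side for HeyC2 (left) and SKOV3 (right); points under 0.05 FPKM are drawn at 0.05, and the dotted line is 1 FPKM. CLDN1 led in every library, and CLDN4 and CLDN3 changed places between the SKOV3 control (24.18 and 12.13 FPKM) and SKOV3 TET1 (14.46 and 21.09 FPKM).

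The other genes of the junction complexes moved in both directions. Of 27 other tight junction genes, 14 passed the filter in HeyC2, with 4 higher and 3 lower and a median relative log2 change of 0.06, and 23 passed in SKOV3, with 9 higher and 3 lower and a median of 0.18. The all-gene shares were 12.5% higher with 9.19% lower for HeyC2, and 20.7% with 18.2% for SKOV3. Of the 9 in SKOV3, 3 (CXADR, AMOT and MAGI1) passed only through their TET1 level, as did PARD6A in HeyC2, so the filter fixed their direction. In SKOV3 the genes furthest above the median in TET1 were CXADR, the coxsackievirus and adenovirus receptor, at 0.27 and 12.70 FPKM, TJP3 (ZO-3) at 1.97 and 13.98 FPKM, and CGNL1 (paracingulin) at 3.62 and 17.74 FPKM. Tricellulin (MARVELD2), the protein of tricellular contacts, was lower in SKOV3, at 6.88 and 4.01 FPKM. In HeyC2 the polarity kinase gene PRKCI was higher, at 31.31 and 52.17 FPKM, and ARHGEF2 (GEF-H1), which cingulin binds, was lower, at 46.19 and 21.76 FPKM.

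Among 14 other desmosomal genes, 6 passed in HeyC2 with 1 higher and 1 lower, and 7 passed in SKOV3 with 0 higher and 2 lower, at medians of 0.01 and -0.23. These few calls stand beside all-gene shares of 12.5% higher and 9.19% lower in HeyC2 and 20.7% and 18.2% in SKOV3. The gene higher in HeyC2 was the desmosomal cadherin DSC2, at 3.56 and 7.10 FPKM. Plakophilins, which bind desmoplakin, were among those that were lower. PKP2 was 5.17 FPKM in the HeyC2 control and 1.78 in HeyC2 TET1, and for SKOV3 PKP3 was 45.82 and 22.69, the line's other lower gene being PERP at 34.10 and 18.23 FPKM. The lower plakophilin was thus a different gene in each line, since PKP2 was 15.26 and 21.86 FPKM in SKOV3 and PKP3 was 5.01 and 5.62 FPKM in HeyC2. The desmosomal cadherin DSG2 was between 42.28 and 49.40 FPKM in all 4 libraries.

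Adherens and gap junction genes were counted in the same way, beside the same all-gene shares of 12.5% and 9.19% in HeyC2 and 20.7% and 18.2% in SKOV3. Of 15 adherens junction genes, 11 passed in HeyC2 with 1 higher and 0 lower, and 13 passed in SKOV3 with 1 higher and 4 lower. E-cadherin (CDH1) was listed at 0 in both HeyC2 libraries and was 2.24 FPKM in the control and 6.30 in TET1 in SKOV3. The 4 lower in SKOV3 were VCL at 95.31 and 56.00 FPKM, LIMA1 at 38.70 and 20.83, PLEKHA7 at 35.06 and 20.61, and CTNND1 at 50.33 and 37.77. N-cadherin (CDH2) was 26.87 and 43.24 FPKM in HeyC2. Of 13 gap junction genes, 5 passed in HeyC2 with 1 higher and 1 lower, and 7 passed in SKOV3 with 1 higher and 2 lower. Connexin 43 (GJA1) was 15.34 and 12.23 FPKM in HeyC2 and 3.48 and 13.71 FPKM in SKOV3. PANX2 was lower in both lines, at 23.05 and 14.29 FPKM in HeyC2 and 11.12 and 7.41 FPKM in SKOV3.

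**Figure D4:**
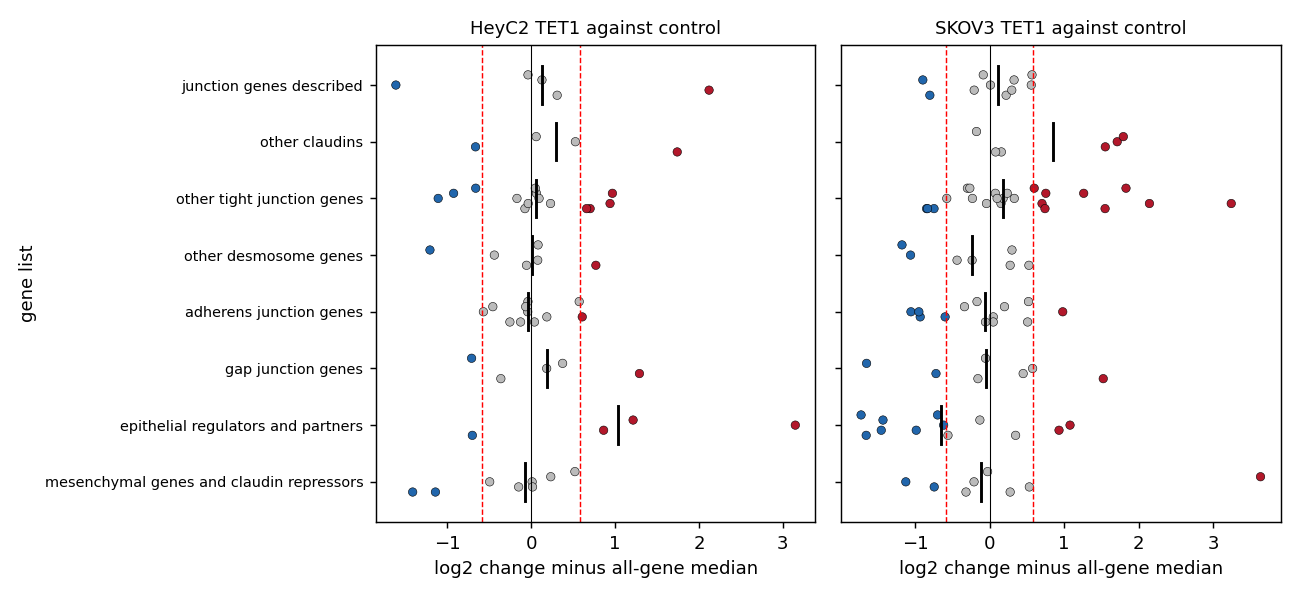
Relative log2 change (TET1 against control, minus the all-gene median) of each gene that passed the filter, by list, in HeyC2 (left) and SKOV3 (right); red points were called higher, blue lower and grey neither, black bars are list medians and red dashed lines mark 1.5-fold. Of the 10 junction genes, 2 were called in each line, CLDN7 and DSP in HeyC2 and CLDN4 and DSP in SKOV3.

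Markers of other cell types were read beside these values. Of 5 leukocyte markers the defining genes PTPRC and CD3E were at most 0.28 and 0.00 FPKM, and the summed list was 56.68 and 90.50 FPKM in HeyC2 and 13.29 and 20.96 in SKOV3, almost wholly from the lysosomal gene CD68. Of 4 endothelial markers PECAM1 was at most 0.09 FPKM, and the sum of 19.61 and 95.38 FPKM in HeyC2 came from CDH5 (18.85 and 94.63 FPKM), with 0.86 and 0.64 FPKM in SKOV3. Of 6 fibroblast markers, 3 passed the filter in SKOV3, all only through their TET1 level (COL1A1 at 0.32 and 27.66, COL1A2 at 0.13 and 2.12 and LUM at 0.51 and 4.32 FPKM), so their direction was fixed, the sum being 1.04 FPKM in the control and 34.66 in TET1, with DCN at 0.08 and 0.00, and in HeyC2 the sum was 2.14 and 2.99 FPKM. The part of these genes in the junction values was not tested.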

How the data were processed

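RNA was sequenced by the authors from 4 libraries, and FPKM were deposited in a table for each cell line, made per the labels with Bowtie2 2.2.6 on hg19 and RSEM 1.2.17. The annotation, strand setting and read totals are not given in the sources used here, nor is the scaling to GAPDH, which was recovered from the value steps. TET1 columns were divided by that constant, and the deposited values centred on their median are an alternative. The change was log2((TET1 + 1)/(control + 1)) minus the median of genes with a mean of at least 1 FPKM, and 1.5-fold was called. Fragments were estimated from value steps of genes with 1 transcript, with a mean fragment length of 170 bases (mean cosine 0.32 to 0.46 over 334 to 407 genes, where 1 means all values on whole fragments), and intervals were exact at 95% and cover counting error only. Loci came from GENCODE on GRCh37, matched by symbol for 85.41% of genes, and promoters from RefSeq. Named genes were all 10 members, the called or highest genes of each list and the nearest patterns. Only some of these are printed, and not always those with the largest values. The members and lists were chosen with earlier results of these data known. Calculations ran in Python 3.11.15 with numpy 2.4.6, pandas 2.3.3, scipy 1.17.1 and matplotlib 3.10.9. They were tested on data simulated with the same transcript lengths. Some genes of the lists are counted but not reported by name here. Alternatives covered pseudocount, filter, scaling and fold.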

Additional observations from a re-analysis of the deposited data

Results flagged for a closer look

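Some genes of the junction, polarity and marker lists moved in opposite directions in HeyC2 and SKOV3, each by at least 1.5-fold relative to the all-gene median. None of the 10 junction genes did so, and the difference between the lines was not tested, since each condition has 1 library. The keratins KRT7 and KRT19 had relative log2 changes of 1.90 and 0.62 in HeyC2 and of -6.26 and -7.65 in SKOV3. KRT7 was 1537.20 FPKM in the SKOV3 control and 21.96 FPKM in SKOV3 TET1, and KRT19 was 255.14 and 0.46 FPKM. In HeyC2, KRT19 was 0.62 and 1.59 FPKM and passed the filter only through TET1. Whether the SKOV3 libraries differ in clone or cell stock cannot be told apart from a change after TET1. The mesothelin gene MSLN had 0.67 in HeyC2 but -3.58 in SKOV3, and KLF5 0.86 and -1.45, on the same scale. In SKOV3, KRT19 and MSLN passed only through their control level, so the filter fixed their direction there. The share of all genes called in opposite directions is not given here. In the reverse direction, ARHGEF2 had -1.11 in HeyC2 but 0.75 in SKOV3, and the polarity gene PARD6B at -0.66 and 0.74.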

How the results depend on the processing

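No paired analysis was possible because each group has 1 library and the labels carry no replicate numbers. Of 122 counts under alternative settings, 92 stayed within 1.5 times their main value and 30 did not. In HeyC2, with a mean of at least 5 FPKM, 0 junction genes were higher and 0 lower, since CLDN7 and DSP were filtered out, and 673 of all genes were lower. The deposited values, centred, gave 2 junction genes and 1676 of all genes lower. At 1.2-fold 2 junction genes were higher, with 3302 and 3134 of all genes higher and lower, and at 2-fold the latter were 489 and 337. In SKOV3, 1 junction gene was higher with a pseudocount of 0.1 or 0.01, with no filter or with a minimum of 5 FPKM, 2 without centring or with upper-quartile scaling, 3 after TPM rescaling and 4 at 1.2-fold. Lower junction genes numbered 1 after TPM rescaling and 0 at 2-fold. All genes lower were 1499 without centring, TPM rescaling gave 4279 higher and 1432 lower, 2-fold 1319 and 845, and 1.2-fold 4535 and 4437. Between controls, 2-fold left 1 junction gene higher, and 2323 and 2219 of all genes. A call that also required the counting interval to leave out the all-gene median, chosen after seeing the data, gave the main counts. Of 226 values of single junction genes, 187 moved by less than the counting error of the gene's ratio, 39 moved by more and 0 called values changed sign. With pseudocounts of 0.1 and 0.01, DSP in HeyC2 went to -2.78 and -3.04 and CLDN7 to 5.12 and 8.40. JUP between controls, whose interval is wide, went from -5.08 to -9.39 with 0.01. Depth limits JUP, CLDN3 and CGN in HeyC2, each at 10 fragments or fewer.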

Other observations

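Transcription factors and partners of epithelial genes were more often lower than higher in SKOV3 with TET1. Of 20 such genes, 12 passed the filter there, with 2 higher and 7 lower in TET1 than in control and a median relative log2 change of -0.66, against 20.7% higher and 18.2% lower among all genes. The ETS factors ELF3, from 22.45 to 55.55 FPKM, and EHF, from 12.97 to 29.41 FPKM, were higher. ESRP2, a splicing regulator of epithelial isoforms, was lower at 4.03 and 0.74 FPKM, as was OVOL2, which represses ZEB1, at 4.66 and 1.4 FPKM. Of these, ESRP2 passed only through its control level, so the filter fixed its direction. EPCAM, the partner of CLDN7, was 15.39 and 16.10 FPKM. In HeyC2, 4 of the 20 passed, 3 higher and 1 lower, beside 12.5% and 9.19% of all genes, with the protease inhibitor SPINT2 among the higher at 2.89 and 34.96 FPKM. GRHL2, an activator of claudin genes, was listed at 0 in all 4 libraries.

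Of 9 mesenchymal genes and claudin repressors, 8 passed the filter between the controls, and 8 were higher in the HeyC2 control than in the SKOV3 control, with a median relative log2 difference of 2.59, beside 29.0% higher and 28.6% lower among all genes. ZEB2 (0.39 FPKM in SKOV3) passed only through its HeyC2 level, so the filter fixed its direction. SNAI1 did not pass and lay the other way, at 0.00 FPKM in the HeyC2 control and 1.56 in the SKOV3 control. VIM was 7496.18 and 1223.43 FPKM, FN1 5556.55 and 32.56, and ZEB1, an E-box repressor, 22.67 and 9.14. In TET1 against control, 8 of the 9 passed in HeyC2, with 0 higher and 2 lower, beside 12.5% and 9.19% of all genes. In SKOV3, 8 passed, with 1 higher and 2 lower, beside 20.7% and 18.2%. VIM was lower in both lines, at 2926.91 FPKM in HeyC2 TET1 and 834.83 in SKOV3 TET1. FN1 was the other lower gene in HeyC2, at 2618.93 FPKM with TET1. ZEB1 was called in neither line, with relative log2 changes of 0.02 in HeyC2 and -0.21 in SKOV3. SNAI2 (SLUG) was lower in SKOV3, at 17.01 and 8.44 FPKM, and SPARC, a matricellular protein, was higher there, at 9.27 and 144.43 FPKM.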
